A study of Homo sapiens with 2 samples.

Results

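A contact domain is a stretch of chromosome whose parts touch each other more often than they touch the neighbouring sequence. The long ones described here were selected on length alone: autosomal contact domains of at least 700 kb, from first to last base, that held no smaller listed domain. There were 300 of them among 3845 listed domains, of which 3751 lay on autosomes. Another 27 autosomal domains of that length held smaller domains, and 14 of that length lay on chromosome X; neither set is counted among the 300. Length was read from the same contact map as every other value below, so all comparisons are descriptions of 1 map and none carries a test.

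The map came from in situ Hi-C, which cuts crosslinked chromatin, joins ends that lie close together in the nucleus and sequences the junctions. The cells were HEK293T, a human kidney-derived line expressing the large T antigen of SV40, given no treatment beyond formaldehyde fixation, and their chromatin was cut with MboI. The 2 libraries, labelled replicates 1 and 2, formed 1 group with no second condition, and no label says that they were separate cultures. The deposited tables gave 1 value per feature for both libraries together, so no value has a replicate error.

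In the loop extrusion model, cohesin rings reel in chromatin until CTCF proteins bound in convergent orientation stop them, which leaves a domain with a point-like contact peak, a loop, at its corner. Other domains carry no such peak and follow blocks of like chromatin state, the gene-rich A compartment or the gene-poor B compartment. Long domains without loops are often found in gene-poor, late-replicating chromatin in mammalian cells. The series belongs to work on the chromatin remodeller NuRD and CTCF, and its aim was to map these loops, domains and compartments.

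Compartments were given as 1 score per bin of 1 Mb. No source used here gives the convention that ties a sign to the A or B compartment, so bins are called positive or negative as deposited. On chromosomes 5, 11, 13, 14 and 22 a single bin carried 42.3 to 97.9% of the squared score, so their signs do not trace compartment blocks. Values are therefore also given for the other 17 autosomes. On chromosome 4 the sign was of 1 kind along most of each arm, and values without it are given where they moved. Positions are in hg19, counted from 1. Across the 1471 autosomal loops the observed contacts per loop pixel ran from 13 to 349 with a median of 74, which is the only measure of depth in the files. Because the tables list called features, a domain without a loop is one with none listed.

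The 300 long domains had a median length of 947.5 kb, with quartiles at 802.5 and 1196 kb. Their summed length was 320.4 Mb, which is 11.7% of the scored length of the autosomes. They were 8.00% of autosomal domains by number but held 28.5% of the length of the domains that contain no smaller one. Of these, 131 were longer than 1 Mb, 35 reached 1.5 Mb and 10 reached 2 Mb. The lengths ran on across the 700 kb limit without a break. At the limit there were 2 domains, with domain scores of 1.09 and 1.28, and at 5 kb below it there were 5, with scores from 0.676 to 1.70.

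Long domains lay on every autosome, at unequal density. They were densest on chromosome 12 (20 domains, 0.152 per scored Mb), chromosome 5 (27, 0.151 per Mb) and chromosome 8 (21, 0.145 per Mb). The lowest densities were on chromosome 21 and chromosome 22, with 1 domain each (0.0263 and 0.0278 per Mb). Chromosomes 1 and 2 together held 58. As a share of the domains listed on a chromosome, long domains ranged from 2.50% on chromosome 22 and 2.91% on chromosome 17 to 14.1% on chromosome 16. Chromosome 16, with 78 domains, had 11 long ones that covered 18.1% of its scored length, while chromosome 17, with 172 domains, had 5 that covered 5.40%. Their scored lengths were alike, at 81 and 80 Mb.

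**Figure D1:**
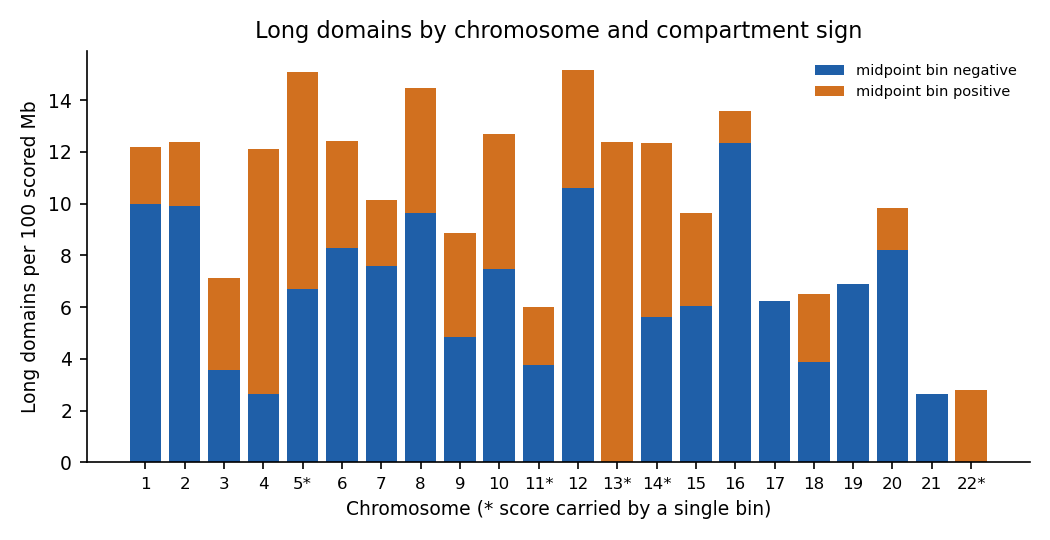
Long domains per 100 scored Mb on each autosome, stacked by the sign of the compartment score at the domain's midpoint; an asterisk marks the chromosomes whose score is carried by a single bin. Chromosomes 12 and 5 stand highest at 15.2 and 15.1 per 100 Mb, and on chromosomes 1, 2 and 16 most of the bar is negative.

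Long domains lay close together in some stretches. Counting windows of 10 Mb from the start of each long domain, the highest number was 6, in overlapping windows from 151345001 and 153625001 on chromosome 2. In the latter, 6 of 10 domains were long and covered 5.96 Mb. All 6 had a negative midpoint bin, as had 24 of all 30 long domains of chromosome 2. None had a loop at its corner, while 5 of those 30 had one. A window from 58320001 on chromosome 8 held 5 long domains among 10, of which 4 were negative. A window from 152025001 on chromosome 4 also held 5, among 19 domains, which covered 4.705 Mb. None of these was negative, on a chromosome whose sign was of 1 kind along most of each arm. On chromosome 5, where a single bin carried most of the squared score, a window from 64095001 held 5 among 12, all negative. These windows were picked after their counts were seen.

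Pairs of long domains also lay end to end. In 16 cases the end of 1 long domain was within 50 kb of the start of the next, which involved 32 of the 300. The members of a pair had the same sign at their midpoints in 15 of 16 pairs, with 10 negative and 5 positive pairs. Neighbouring bins often share a sign, so this count says little on its own. The pair that spanned most sequence lay on chromosome 2, where a 915 kb domain (155255001 to 156170000) was followed after 35 kb by one of 1870 kb (156205001 to 158075000). On chromosome 19 a 940 kb domain (30210001 to 31150000) met a 1600 kb domain (31160001 to 32760000) across 10 kb. The pair of unlike sign was on chromosome 3, at 135785001 to 136740000 (score at the midpoint 0.0230) and 136780001 to 137695000 (-0.0266).

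Long domains bordered other domains about as often as shorter ones did. An end lay within 50 kb of the facing end of another domain in 189 of 300 (63.0%), against 60.3% of all autosomal domains. Both ends did so in 61 (20.3%), against 16.3% of all autosomal domains and 15.8% of the 2812 autosomal domains of over 100 and under 700 kb that held no smaller one, called mid-length below. The median gap from an end to the next domain was 85 kb for long and 95 kb for mid-length domains. A few stood alone beside wide empty stretches: the nearest listed domain before the 2795 kb domain of chromosome 4 (65480001 to 68275000) was 7200 kb away. Of the 300, 5 (1.67%) lay inside a still longer domain, against 7.57% of all autosomal domains. A longer domain has fewer that could hold it, and the share was 16.6% at 60 to 100 kb and 4.23% at 400 to under 700 kb. Within 1 bin of a stretch without a compartment score lay 6 of the 300 (2.00%), against 0.64% of all autosomal domains. Longer domains reach more bins, so length alone can raise this share, which rests on 6 domains.

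The midpoint bin was negative for 184 of 300 long domains (61.3%, 95% Wilson interval 55.7 to 66.7%), against 35.3% of all autosomal domains. Among mid-length domains it was negative for 34.5% (32.8 to 36.3%), and among those of 60 to 100 kb for 25.4% (21.4 to 29.9%). On the 17 chromosomes without a single-bin score the shares were 67.2% (61.1 to 72.8%) of 241 long domains and 32.8% (30.9 to 34.7%) of 2269 mid-length domains. Without chromosome 4 as well, they were 72.0% and 34.0%. Shares weighted by chromosome were lower than the measured one. Had each of the 241 taken the share of negative bins of its own chromosome, 51.6% would be negative, and 33.2% at the share of its mid-length domains. The share of negative long domains was above that of mid-length domains on all 17 of these chromosomes and above that of the bins on 15, the exceptions being chromosome 3 (50% of 14 domains, 54.6% of bins) and chromosome 4 (21.7% of 23, 25.8% of bins).

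Within the long domains, the share of negative midpoints was higher in each longer class. On the 17 chromosomes it was 47.3% (34.7 to 60.2%) at 700 to under 800 kb, 64.9% at 800 to under 1000 kb, 76.6% at 1000 to under 1500 kb and 84.4% (68.2 to 93.1%) at 1500 kb or more. The intervals of neighbouring classes overlap, while those of the shortest and the longest class do not. At 400 to under 700 kb the share was 44.7% (40.2 to 49.4%), close to that of the shortest long domains, so the share made no step at 700 kb.

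**Figure D2:**
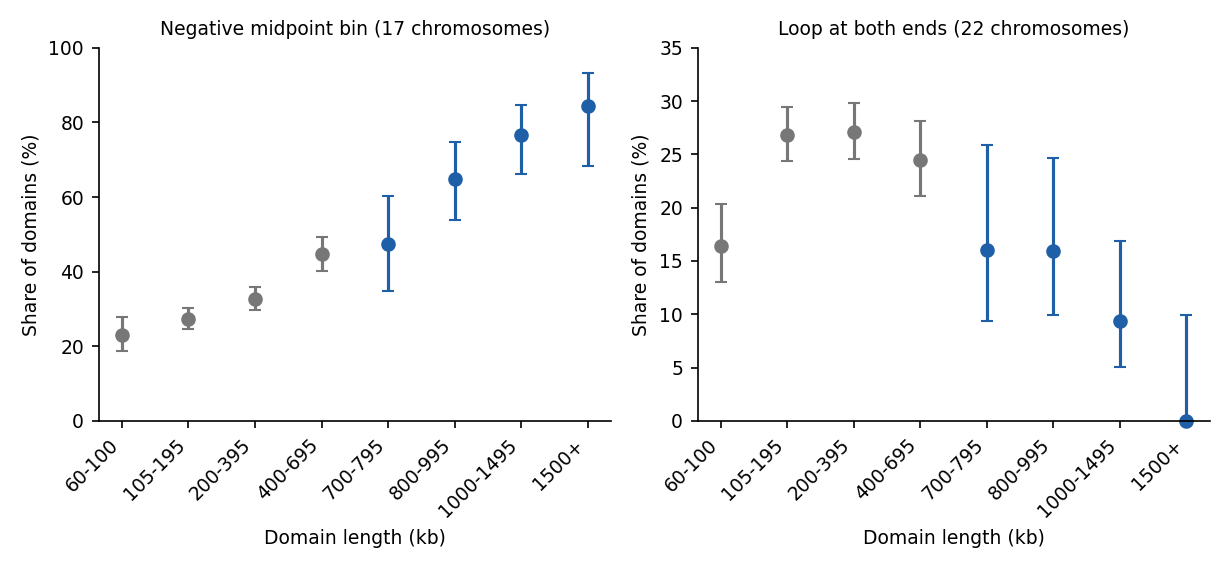
Share of domains with a negative midpoint bin on the 17 chromosomes without a single-bin score (left) and share with a loop at both ends within 50 kb on all 22 autosomes (right), by length class in kb; points are shares, bars are 95% Wilson intervals, and blue marks the long domains. The negative share climbs from 47.3 to 84.4% across the blue classes while the loop share drops from 16.0% to 0.

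The size of the score at the midpoint followed the same order. To set chromosomes side by side, each score was divided by the largest absolute score of its chromosome, which gives a relative score between -1 and 1. On the 17 chromosomes its median was -0.34 for long, 0.32 for mid-length and 0.48 for short domains. A relative score below -0.5 was found for 95 of 241 long domains (39.4%, 33.5 to 45.7%) and for 13.0% (11.6 to 14.4%) of mid-length ones. Above 0.5 the order was opposite, with 35 (14.5%, 10.6 to 19.5%) against 37.2% (35.3 to 39.2%). On these chromosomes the lowest relative scores belonged to a 940 kb domain on chromosome 18 (4060001 to 5000000, -0.99), a 965 kb domain on chromosome 16 (52095001 to 53060000, -0.97) and a 1225 kb domain on chromosome 2 (11935001 to 13160000, -0.97). The highest belonged to 765 kb on chromosome 3 (50655001 to 51420000, 0.88), 940 kb on chromosome 20 (46295001 to 47235000, 0.84) and 1115 kb on chromosome 9 (128140001 to 129255000, 0.82). Long domains thus reached into the most positive parts of a chromosome too. None of these 6 had a loop at its corner, and neither had 264 of all 300 long domains.

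**Figure D3:**
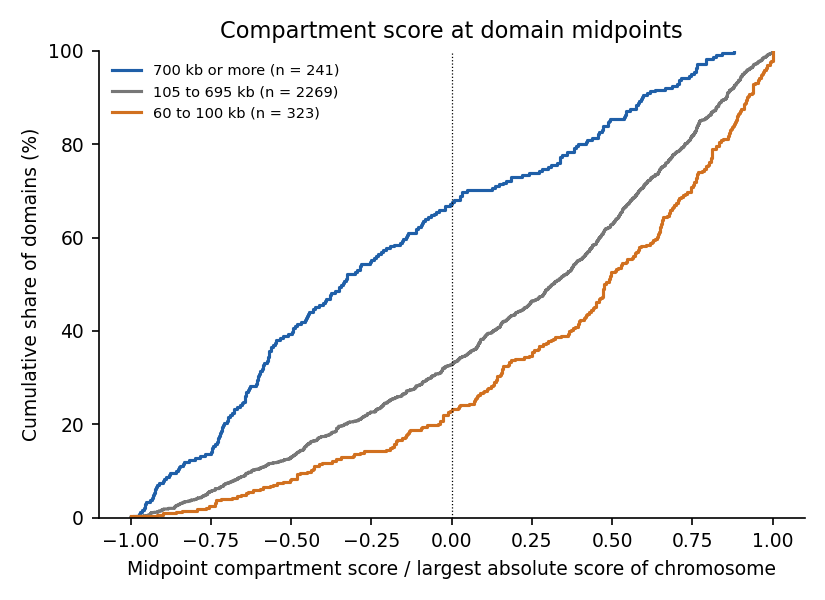
Cumulative share of domains by relative compartment score of the midpoint bin, on the 17 chromosomes without a single-bin score, for long, mid-length and short domains. At 0, marked by the dotted line, the long domains have accumulated 67.2% and the mid-length domains 32.8%.

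Most long domains kept to bins of 1 sign although nearly all crossed a bin limit. A total of 272 of 300 reached into more than 1 bin, and 46 (15.3%, 11.7 to 19.8%) spanned bins of both signs, against 6.42% of all autosomal domains. Leaving out bins below 0.25 of the chromosome's median absolute score gave 8.67% (5.98 to 12.4%) of long and 3.17% (2.58 to 3.88%) of mid-length domains. A longer domain meets more bins, so the shares are compared at an equal number of bins. Among domains that reached exactly 2 bins, 27 of 224 long ones (12.1%, 8.42 to 17%) and 21.3% (18.6 to 24.3%) of 784 mid-length ones spanned both signs. Of the 45 long domains that reached 3 bins, 19 (42.2%, 29.0 to 56.7%) did so, and of the 3 that reached 4 bins none did. The other 254 comprised 150 wholly negative and 104 wholly positive ones. These counts include the chromosomes with a single-bin score. On the other 17 chromosomes 40 of 241 long domains (16.6%) spanned both signs, and 130 of the 201 of 1 sign (64.7%) were negative.

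The 46 domains of both signs differed in how unevenly the signs were shared. The sign that held less of the domain covered a median of 18.7% of its length, from 0.629 to 49.4%, with quartiles at 8.90 and 26.7% and under 10% in 13 domains. In 42 there was 1 switch of sign and in 4 there were more. The order along the chromosome was positive first in 25 and negative first in 21. The midpoint bin was negative in 34 of them (73.9%, 59.7 to 84.4%). On the 17 chromosomes the absolute relative score at the midpoint had a median of 0.36 for 40 domains of both signs and 0.58 for 201 of 1 sign.

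The domain score is the caller's own figure for each domain, and no source used here says what it measures. Its median was 1.04 for long domains (quartiles 0.801 and 1.26), 1.24 for mid-length domains (1.07 and 1.43) and 1.07 for short ones. It was lower in each longer class of long domains, with medians of 1.16 at 700 to under 800 kb, 1.14 at 800 to under 1000 kb, 0.949 at 1000 to under 1500 kb and 0.775 from 1500 kb. Across the 300 domains the rank correlation of length with score was -0.37, a description over domains of 1 map. The fall began below 700 kb, with medians of 1.27 at 200 to under 400 kb and 1.19 at 400 to under 700 kb. A score below 1 was given to 15.9% and 27.8% of those classes, and to 21.3%, 35.1%, 55.2% and 80.0% of the 4 classes of long domains in order of length.

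**Figure D4:**
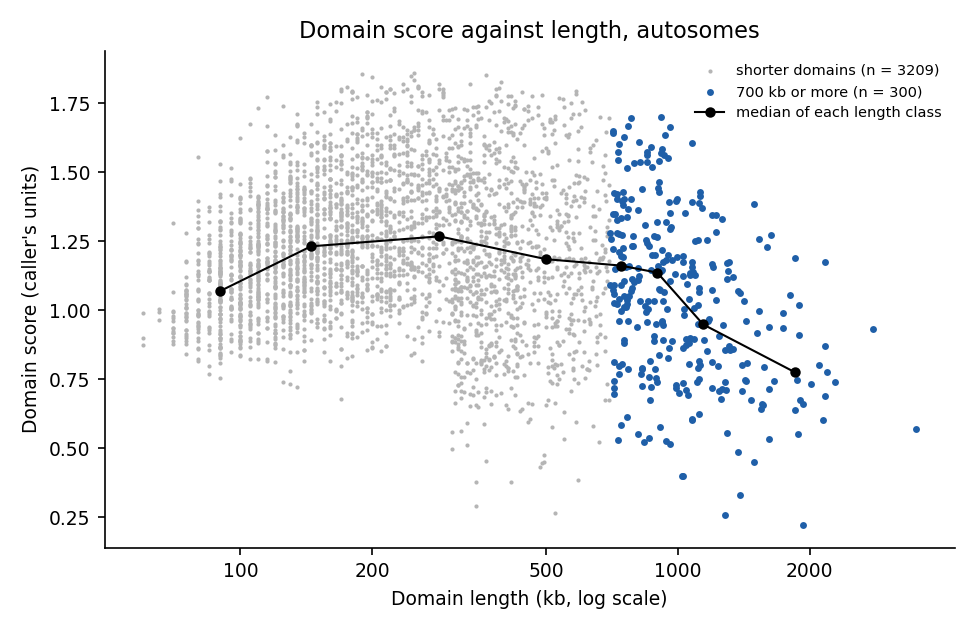
Domain score against domain length (log scale) for autosomal domains that hold no smaller one; blue points are the long domains, grey points the shorter ones, and the line joins the medians of 8 length classes. The medians stay between 1.07 and 1.27 below 700 kb and drop to 0.775 in the longest class.

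The highest scores among long domains were found below 1 Mb. They were 1.70 for a 915 kb domain on chromosome 10 (15920001 to 16835000), 1.70 for 780 kb on chromosome 6 (134465001 to 135245000) and 1.67 for 770 kb on chromosome 2 (135740001 to 136510000). Next came 960 kb on chromosome 2 (138625001 to 139585000, 1.66) and 710 kb on chromosome 7 (111385001 to 112095000, 1.65). A loop joined both ends of 3 of these 5, and the domain on chromosome 6 held 2 loops inside. The lowest scores were 0.222 for 1930 kb on chromosome 1 (101850001 to 103780000), 0.258 for 1280 kb on chromosome 20 (23645001 to 24925000) and 0.332 for 1385 kb on chromosome 13 (101785001 to 103170000). They were followed by 1025 kb on chromosome 1 (105320001 to 106345000, 0.399) and 1020 kb on chromosome 6 (50775001 to 51795000, 0.399). Those on chromosome 1 faced each other across 1540 kb with no listed domain. None of these 5 had a loop at its ends or inside, while 60.3% of all long domains had no anchor there. Of the 5, 4 were wholly negative, the exception being on chromosome 13, where 1 bin alone was negative.

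The domain table also gave values in columns named upSign and loSign, which split the long domains. No autosomal domain shorter than 305 kb had either value below 0.5, and none of any length had one below 0.4. From that length on such domains were listed, and among the long ones 140 of 300 (46.7%) had at least 1 value below 0.5, against 39.9% of 1055 mid-length domains of 305 kb or more. Their median domain score was 0.801, while the 160 with both values at 0.5 or above had 1.21. The difference between lengths remained within either set: for mid-length domains of 305 kb or more the medians were 0.951 and 1.35. The negative share was 51.2% (82 of 160) for long domains with both values at 0.5 or above and 72.9% (102 of 140) for the rest, against 34.5% and 46.8% of those mid-length domains.

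The columns uVarScore and lVarScore held higher values in longer domains. Their medians were 0.223 and 0.222 for long domains and 0.0791 and 0.0799 for mid-length ones. Both were above 0.2 in 178 of 300 long domains (59.3%) and in 82 of 2812 mid-length domains (2.92%). From 1500 kb on, both passed 0.2 in 34 of 35. The rank correlation of uVarScore with length was 0.84 over all autosomal domains and 0.64 within the long ones, so uVarScore largely followed the length. For lVarScore it was not computed.

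The 10 longest domains comprised 4 wholly negative, 2 wholly positive and 4 of both signs. The 2 wholly positive ones lay on chromosomes 4 and 5. Chromosome 4 had 1 sign along most of each arm, and chromosome 5 had a single-bin score. The first 3 of the 10 were 3.505 Mb on chromosome 10 (82360001 to 85865000, score 0.571), 2795 kb on chromosome 4 (score 0.931) and 2285 kb on chromosome 2 (220560001 to 222845000, 0.740). On chromosome 10 all 4 bins were negative, with a relative midpoint score of -0.88, while the domain on chromosome 4 lay in 4 positive bins. The next were 2190 kb on chromosome 16 (72140001 to 74330000, 0.775), 2175 kb on chromosome 1 (237970001 to 240145000, 0.689) and a pair of 2170 kb, on chromosome 10 (9360001 to 11530000, 1.18) and chromosome 2 (103440001 to 105610000, 0.872). The last 3 were 2150 kb on chromosome 5 (154415001 to 156565000, 0.603), 2100 kb on chromosome 12 (86315001 to 88415000, 0.801) and 2015 kb on chromosome 2 (40030001 to 42045000, 0.734). Of these 10, none had a loop at both ends and 1 held a loop. Bins of both signs were spanned by those starting at 220560001 and 40030001 on chromosome 2, 72140001 on chromosome 16 and 9360001 on chromosome 10. In the domain of chromosome 16 the lesser sign covered 45.7% of the length, and the relative midpoint score was -0.02.

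A loop joined both ends, within 50 kb of each, in 36 of 300 long domains (12%, 8.80 to 16.2%), against 24.2% of all autosomal domains and 26.5% (24.9 to 28.1%) of mid-length ones. The share was 16.0% at 700 to under 800 kb, 16.0% at 800 to under 1000 kb and 9.38% at 1000 to under 1500 kb. From 1500 kb on it was 0 of 35 domains, which allows a share of up to 8.57% at 3 counts (Wilson upper bound 9.89%). The lower share held in both signs. It was 10.9% (7.15 to 16.2%) of negative and 13.8% (8.67 to 21.2%) of positive long domains, against 25.2% and 27.1% of mid-length ones. It was also lower among domains with both sign columns at 0.5 or above, 18.8% (30 of 160) against 34.9% (221 of 634) of mid-length domains of 305 kb or more. Listed loops thin out with distance: 499 autosomal loops spanned 200 to 400 kb, 87 spanned 700 to 1000 kb, 38 spanned 1000 to 1500 kb and 21 spanned 1500 kb to the length of the longest domain. Whether the caller would have found loops at the longer distances as readily was not tested.

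Where long domains had a corner loop, they were among the better scored. The 36 with a loop had a median score of 1.34 (quartiles 1.15 and 1.46), against 1.02 (0.785 and 1.20) for the 264 without, and a median length of 897.5 against 960 kb. Both calls rest on the same contacts, so the score is not independent of the loop. The 36 loops spanned 670 to 1430 kb with 24 to 104 observed contacts (median 57). Their enrichment, the observed count over that expected from the surrounding donut of pixels, had a median of 3.11-fold. The 102 other autosomal loops of the same distances had 3.07-fold on 50.5 contacts, close to the corner loops of long domains. Of those 102 loops, 4 sat at corners of mid-length domains and 3 at corners of domains that held smaller ones.

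The highest enrichment was in an 850 kb domain of chromosome 21 (28220001 to 29070000), the only long domain of that chromosome. There 37 contacts were counted against 5.98 expected, 6.19-fold (95% Poisson interval 4.36 to 8.53). An 870 kb domain of chromosome 17 (5465001 to 6335000) followed with 5.04-fold (3.23 to 7.50) on 24 contacts, and a 1085 kb domain of chromosome 7 (83565001 to 84650000) with 4.78-fold (3.42 to 6.51) on 40. The intervals of these 3 overlap, so their order is not resolved. A 1270 kb domain of chromosome 12 (32905001 to 34175000, 4.41-fold on 56 contacts) and a 1235 kb domain of chromosome 3 (187445001 to 188680000, 4.17-fold on 40) came next and were also among the 5 longest with a corner loop.

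Ranked by contacts rather than enrichment, the list changed. The most contacts were 104 in a 710 kb domain of chromosome 13 (80225001 to 80935000), where 51.6 were expected, which made it the least enriched of the 36 at 2.02-fold (1.65 to 2.44). It was followed by 100 contacts at 720 kb on chromosome 2 (100150001 to 100870000, 3.21-fold) and 89 at 1125 kb on chromosome 14 (62625001 to 63750000, 3.66-fold). The last of the 5 were 86 at 905 kb on chromosome 4 (145080001 to 145985000, 3.31-fold) and 85 at 930 kb on chromosome 7 (41975001 to 42905000, 2.81-fold). The longest domains with a corner loop were 1440 kb on chromosome 5 (151905001 to 153345000, 3.54-fold on 46 contacts) and 1415 kb on chromosome 7 (13315001 to 14730000, 3.86-fold on 41), and the fifth was 1225 kb on chromosome 14 (33040001 to 34265000, 2.76-fold on 58). Domains longer than 1440 kb had none.

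The anchors of the corner loops had their centres mostly just inside the domain, by about 1 anchor width. Anchors were 10 kb wide in 28 of the 36 loops and 5 kb wide in 8, and domain ends lay on 5 kb bins. Offsets of this size are thus near the limit of what the calls resolve. Of the 72 anchors, 58 had their centre inside the end, 9 on it and 5 outside. The centre lay a median of 10 kb inward, with quartiles at 2.5 and 18.1 kb, and 40 of 72 were within 10 kb. For 10 domains both anchors were that close. The tolerance thus decided the count: it was 36 at 50 kb, 23 at 25 kb and 10 at 10 kb, against 744, 672 and 419 of 2812 mid-length domains.

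More long domains had an anchor at 1 end than a loop across both. A loop anchor lay within 50 kb of at least 1 end in 116 of 300 (38.7%, 33.3 to 44.3%), against 48% of all autosomal domains. By sign it was 34.2% (27.8 to 41.4%) of negative and 45.7% (36.9 to 54.7%) of positive long domains. Among mid-length domains these shares were 48.6% and 49.0%. At both ends there were anchors in 46 (15.3%), against 27.4% of all autosomal domains, made up of the 36 with a corner loop and 10 whose ends belonged to separate loops. At 1 end alone there was an anchor in 70 (23.3%, 18.9 to 28.4%), against 20.6% of all autosomal and 19.6% (18.2 to 21.1%) of mid-length domains. Counted by ends, 162 of 600 (27.0%) had an anchor, against 39.1% of the 5624 ends of mid-length domains. No anchor lay at either end or between them in 181 long domains (60.3%, 54.7 to 65.7%), against 51.5% of all autosomal domains. This share was 64.7% (57.5 to 71.2%) of negative and 53.4% (44.4 to 62.3%) of positive long domains, against 51.0% and 50.5% of mid-length ones. A loop reached from inside across an end, corner loops left out, in 15 (5.00%), against 5.97% of all autosomal domains.

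The interior of long domains held few loop anchors. No anchor lay more than 50 kb inside the ends in 279 of 300 (93.0%, 89.5 to 95.4%), against 95.4% of all autosomal domains, although long domains offer far more interior. Counting an anchor once for each loop, the 290.4 Mb of interior held 29 anchors, or 0.0999 per Mb. The same density was 0.221 per Mb in mid-length domains. In negative and positive long domains it was 0.0584 and 0.176 per Mb, against 0.199 and 0.235 in mid-length ones. Over the scored length of the autosomes it was 1.08 per Mb, a value that includes domain ends. In the 27 domains of 700 kb or more left out for holding smaller ones, the interior density was 0.408 per Mb. The rule itself thus bears on the density of the 300. In the 100 kb around each end it was 3.33 per Mb for long and 4.92 per Mb for mid-length domains. Followed across the ends of long domains in steps of 25 kb, it was 1.60 per Mb from 75 to 50 kb outside, 4.33 in the last 25 kb outside, 5.00 in the first 25 kb inside and 0.333 from 50 to 75 kb inside. From there to 350 kb inside no step rose above 0.333 per Mb, or 5 anchors over the 600 ends.

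**Figure D5:**
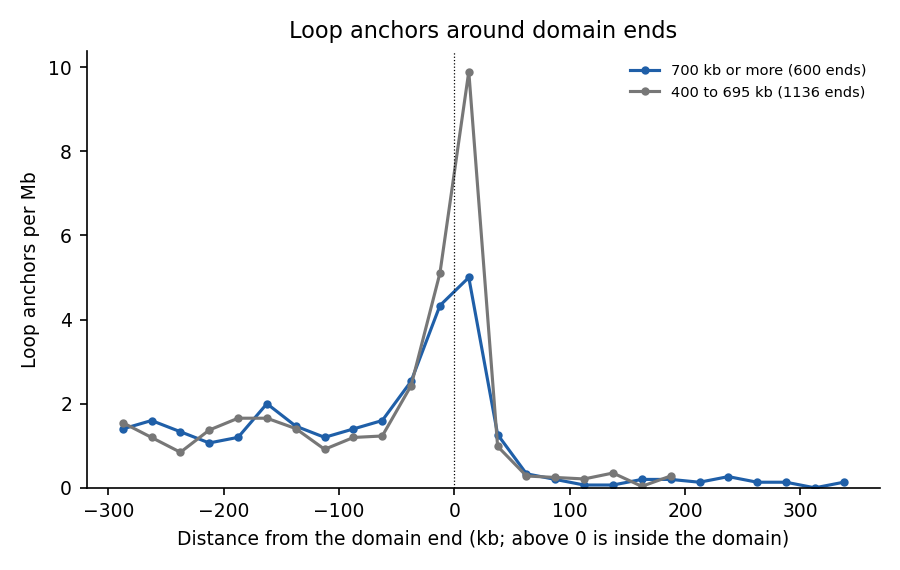
Loop anchors per Mb by distance from the domain end in steps of 25 kb, for long domains (600 ends) and for domains of 400 to under 700 kb (1136 ends, drawn as far as their interior allows); values above 0 on the x axis lie inside the domain. Both curves peak at the end, at 5.00 and 9.89 per Mb, and inside they fall below the level outside.

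Loops wholly inside, corner loops left out, numbered 19 in 16 long domains (5.33%, 3.31 to 8.49%), against 3.87% of all autosomal domains. The latter share includes domains of up to 100 kb, of which 0 of 397 held such a loop. At 400 to under 700 kb the share was higher than in long domains, at 7.57% (5.67 to 10.0%), though the intervals overlap. Per Mb of domain, long domains held 0.0593 such loops (95% Poisson interval 0.0357 to 0.0926), against 0.0935 (0.0732 to 0.118) in mid-length domains. At 400 to under 700 kb there were 0.148 (0.107 to 0.200). The lower density was not seen in both signs. It was 0.0339 (0.0136 to 0.0698) in negative and 0.106 (0.0545 to 0.184) in positive long domains, against 0.0937 and 0.0934 in mid-length ones. The intervals of the negative and positive long domains overlap. Among the 160 long domains with both sign columns at 0.5 or above the density was 0.0947 (0.0530 to 0.156). It was 0.0956 (0.0722 to 0.124) in such mid-length domains and 0.153 (0.111 to 0.207) in those of 305 kb or more. Of the 19, 16 had an anchor within 50 kb of an end, so that 3 were free of both ends. They spanned 150 to 1660 kb with a median of 520 kb, and 3 spanned no more than 200 kb. The longest lay in a 1735 kb domain of chromosome 1 (163330001 to 165065000), 55 kb from the first end and 20 kb from the last, and so fell just short of a corner loop. Their median enrichment was 2.65-fold on 68 contacts.

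Of the long domains, 14 held 1 such loop, 1 held 2 and 1 held 3. The domain with 3 was 705 kb long on chromosome 11 (128025001 to 128730000, score 1.26), where all 3 loops shared an anchor at 128500001 to 128510000. From it, loops reached 128040001 to 128050000 with 61 contacts, 128150001 to 128160000 with 75 and 128690001 to 128700000 with 74, at 2.36-fold to 2.61-fold. In the 780 kb domain of chromosome 6, loops started near the first end, at 134480001 and 134500001, and ended at 135140000 and 134960000 (2.11-fold on 96 contacts and 2.29-fold on 72). A loop of 710 kb filled most of an 820 kb domain of chromosome 12 (105795001 to 106615000, 2.95-fold on 72 contacts), and its second anchor lay 90 kb short of the end. On chromosome 2 a 715 kb domain (158155001 to 158870000) held a loop of 520 kb (2.86-fold on 71 contacts), and on chromosome 9 a 930 kb domain (89015001 to 89945000) had both an inner loop of 830 kb (2.65-fold on 71) and a corner loop (3.14-fold on 65). Several of these inner loops thus ran from 1 end to a point short of the other.

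The rule left out 27 autosomal domains of the same length because they held smaller ones, with a median length of 950 kb and a median score of 0.894. Loops inside were found in 5 (18.5%, 8.18 to 36.7%), at 0.270 per Mb (0.116 to 0.532). A corner loop of a smaller domain counts as a loop inside the larger one, so the split by the rule itself bears on these values. A corner loop was found in 3 (11.1%, 3.85 to 28.1%) and a negative midpoint in 13 (48.1%, 30.7 to 66.0%), and these intervals include the shares of the 300.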

How the data were processed

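Both in situ Hi-C libraries entered the 3 deposited tables together, per the file headers and names. Build hg19, BWA 0.7.8, Picard and FastQC 0.11.7 are named, without roles, per the submitters' processing notes. The sources used here give neither the domain and compartment callers nor how the libraries were combined. Loops came from HiCCUPS, per the deposited file's name. The authors' tables hold a compartment score per 1 Mb bin, domain scores on 5 kb bins, observed contact counts per loop pixel, and the expected signal of the surrounding donut and 3 other neighbourhoods. Their FDR columns were not used.

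Domains were assigned to the bin of their midpoint and loops placed by anchor centres (Python 3.11.15, pandas 2.3.3, scipy 1.17.1). Enrichment is observed count over donut expectation. Wilson and Poisson intervals at 95% cover counting error only and treat domains as independent, which neighbours may not be. The placement steps were tested on simulated domains. No genome or annotation of build hg19 was used here, so no genes or sequences are given. Named domains are the 10 longest, those highest and lowest in score and midpoint, and those leading in loops. Members, classes and named-region rules were chosen with earlier results of these data known. Alternatives were other length limits, nested domains, chromosomes, sign rules and tolerances.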

Additional observations from a re-analysis of the deposited data

How the results depend on the processing

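No paired analysis was possible because the tables hold 1 pooled map of 1 group, and for the same reason neither replicate could be left out. A value was taken as moved when it left the 95% interval of the reported one, or, for the number of domains, by over 1.5 times. A limit of 600 kb (404 domains), keeping domains that hold smaller ones (327) and adding chromosome X (314) moved no value. With a length limit of 1000 kb there were 131 domains, with a negative midpoint in 71.0%, a median score of 0.897 and a corner loop in 6.87%; at 800 kb the median score was 0.994. The negative share was 67.2% without the chromosomes with a single-bin score, 72.0% without chromosome 4 as well, and 68.3% on bins above the chromosome's median absolute score. Spans of both signs fell to 8.67% when bins of small score were left out. The corner share was 7.67% at 25 kb and 3.33% at 10 kb. Counting corner loops as inside gave 16.3% and 0.172 per Mb. Among the 160 domains with both sign columns at 0.5 or above, chosen after seeing the data, the negative share was 51.2%, the median score 1.21, the corner share 18.8% and loops inside 0.0947 per Mb. The listed loop pixels held 13 contacts or more, and whether weaker loops lie at the ends of the longest domains was not tested.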
